A study of Homo sapiens with 9 samples.

Results

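The genes described here are 9 rows of the deposited count table, chosen by symbol: the classical cadherins CDH1, CDH2, CDH3 and CDH11 and the catenins CTNNA1, CTNNA2, CTNNAL1, CTNNB1 and CTNND1, out of 28216 gene symbols. All 9 were found. They were followed across 9 poly(A) RNA libraries of 2 human prostate cancer cell lines in 3 groups of 3. PC3, a line from a bone metastasis, was untreated and grown in F12K medium with 10% FBS. LNCaP (clone FCG), a line from a lymph node metastasis, spent 24 h in RPMI without phenol red whose FBS (10%) was charcoal-stripped, that is depleted of steroids. It then received an androgen at 10 nM for 48 h, or 0.01% ethanol as vehicle for the same time. The labels name the androgen as dihydrotestosterone (DHT) and the study's methods as R1881, a synthetic androgen. Which was used in these libraries was not settled, and DHT here follows the labels. Both lines carry the label WT and nothing was engineered in either. Cell line and culture medium differed together, so these cannot be told apart, and each line stands for 1 tumour. No label says whether replicates were separate cultures, so the p-values below measure only the spread between these libraries, which may be technical.

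Classical cadherins are single-pass membrane proteins that bind the same cadherin on the neighbouring cell and so hold cells together at adherens junctions. Inside the cell, the cadherin tail binds beta-catenin, beta-catenin binds alpha-catenin, and alpha-catenin connects to actin, while p120-catenin binds close to the membrane and slows the removal of the cadherin from the surface. Beta-catenin that is not held at the junction is normally degraded, and when it escapes degradation it acts in the nucleus as a coactivator of Wnt target genes. Epithelial cells of the prostate typically carry E-cadherin, the CDH1 product, and the exchange of E-cadherin for N-cadherin (CDH2) or cadherin-11 (CDH11) is a classical feature used to describe mesenchymal-like tumour cells.

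RefSeq promoter windows on GRCh38.p14, running from 250 bases before a transcript start to 50 after it, were matched for 5 of the 9 genes (CTNNA1, CTNNA2, CTNNAL1, CTNNB1 and CDH2). CDH1, CDH3, CDH11 and CTNND1 had no entry. Where a gene had more than 1 window (CTNNA1 and CTNNA2 had 4 each, CDH2 had 2), the 5′-most is shown. The windows of 3 genes with unlike behaviour are printed: CTNNA1, which was far lower in PC3, CDH2, which was far higher in PC3, and CTNNB1, which hardly varied. Capitals mark GC boxes (GGGCGG, or CCGCCC on the other strand), which 45.0% of all 35116 RefSeq promoter windows hold.
CTNNA1, chr5:138753175-138753474, plus strand: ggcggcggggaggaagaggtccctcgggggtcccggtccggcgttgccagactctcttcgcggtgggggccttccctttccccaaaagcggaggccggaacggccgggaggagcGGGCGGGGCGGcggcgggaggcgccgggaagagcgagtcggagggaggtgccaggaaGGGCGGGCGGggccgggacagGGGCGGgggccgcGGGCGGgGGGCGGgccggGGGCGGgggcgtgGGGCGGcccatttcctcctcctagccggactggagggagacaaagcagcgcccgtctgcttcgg
CDH2, chr18:28177081-28177380, minus strand: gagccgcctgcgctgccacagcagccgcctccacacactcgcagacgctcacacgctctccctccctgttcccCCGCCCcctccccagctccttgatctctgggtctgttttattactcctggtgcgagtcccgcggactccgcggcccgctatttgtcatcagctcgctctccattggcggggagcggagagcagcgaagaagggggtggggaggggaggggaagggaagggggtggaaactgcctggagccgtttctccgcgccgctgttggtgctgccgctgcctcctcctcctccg
CTNNB1, chr3:41199255-41199554, plus strand: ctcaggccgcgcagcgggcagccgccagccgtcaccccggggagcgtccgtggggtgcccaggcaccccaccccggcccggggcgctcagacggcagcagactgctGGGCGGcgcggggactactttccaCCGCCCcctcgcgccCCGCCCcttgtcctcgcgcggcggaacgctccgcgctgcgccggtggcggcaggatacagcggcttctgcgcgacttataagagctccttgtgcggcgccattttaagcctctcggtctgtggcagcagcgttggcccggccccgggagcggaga
The CTNNA1 window holds 9 GC boxes, overlapping matches included, the CTNNB1 window 3 and the CDH2 window 1. None of these 3 windows holds CAGGTG or CACCTG, the E-box letters recognised by the Snail and ZEB proteins, which 20.6% of all windows hold. The 5′-most window of CTNNA2, the gene with higher counts under DHT, is printed with the letters AGAACA and TGTTCT in capitals, the half-site that steroid receptors share and that 14.8% of all windows hold.
CTNNA2, chr2:79185127-79185426, plus strand: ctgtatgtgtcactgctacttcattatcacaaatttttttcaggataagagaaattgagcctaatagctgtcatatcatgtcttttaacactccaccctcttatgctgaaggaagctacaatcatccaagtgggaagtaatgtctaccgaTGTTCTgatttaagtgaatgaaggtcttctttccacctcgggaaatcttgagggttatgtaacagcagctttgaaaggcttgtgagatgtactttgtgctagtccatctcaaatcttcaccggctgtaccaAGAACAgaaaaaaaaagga
It holds 2 half-sites, and the other 3 CTNNA2 windows hold 0. A match of letters is a description of the sequence, not of a bound site.

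Counts on genes ran from 22444083 to 25640325 per library in PC3, from 21094326 to 23460708 in DHT-treated LNCaP and from 17397706 to 18674795 in vehicle-treated LNCaP. Levels are given as counts or as CPM, which are counts after TMM scaling of the 9 libraries to one size, and 3 counts, the upper limit that a count of 0 allows, correspond to 0.117 to 0.172 CPM before that scaling. All limits and intervals of this kind cover counting error only. For the cell type label, epithelial, the markers EPCAM, KRT8, KRT18, KRT19 and CLDN7 were read, and all 5 had more than 3 counts in every library. This limit is low, and 3 of 6 fibroblast and 3 of 5 leukocyte markers also passed it in PC3. The epithelial markers differed between groups in both directions. CLDN7 had 3.99 CPM in PC3, 390 with DHT and 217 with vehicle, and KRT19 had 435, 15.4 and 1.82. All 6 luminal prostate markers passed the same limit in LNCaP and 3 of 6 in PC3, where KLK2 was at 0 in every library. Some markers of other cell types were detected, and some differed between groups. COL1A1 (fibroblasts) stood at a mean of 37.9 CPM and CD68 (macrophages) at 32.6 CPM in PC3, where EPCAM stood at 32.0. CD68 had 18.6 CPM with DHT and 1.86 with vehicle, and VWF (endothelium) 0.0553 CPM in PC3, 7.50 with DHT and 17.0 with vehicle. Leukocyte markers summed to between 1.65 and 35.1 CPM per library with CD3E at 0 throughout, fibroblast markers to between 12.6 and 48.3 CPM, endothelial markers to between 2.05 and 18.4 CPM and neuroendocrine markers to between 1.48 and 5.34 CPM with CHGA and INSM1 at 0 throughout. The part of these markers in the results was not tested. In bulk RNA of this kind, fewer cells with a transcript and less transcript per cell cannot be told apart.

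The cadherin repertoire of the 2 lines was nearly exclusive. LNCaP carried CDH1 and hardly any other of the 4 cadherins, with or without DHT, whereas PC3 carried CDH11 and CDH2, with CDH1 and CDH3 at low levels. CDH1 (E-cadherin; ENSG00000039068, chr16:68737292-68835537, plus strand) had 260, 229 and 346 counts in the PC3 libraries, 15028, 13843 and 12189 in the DHT-treated LNCaP libraries and 10770, 9891 and 10649 in the vehicle-treated LNCaP libraries. Every PC3 library lay below every LNCaP library. The mean level was 11.3 ± 2.07 CPM (SD, n = 3) in PC3, 657 ± 37.1 CPM with DHT and 549 ± 13.2 CPM with vehicle, which is 58.2-fold and 48.7-fold above PC3. The log2 fold change of PC3 over DHT-treated LNCaP was -5.86 (SE 0.14, adjusted p = 2.42e-08, edgeR quasi-likelihood F test with Benjamini-Hochberg adjustment), and that of PC3 over vehicle-treated LNCaP was -5.58.

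CDH11 (cadherin-11, the cadherin named after osteoblasts; ENSG00000140937, chr16:64943753-65126112, minus strand) had 20006, 17255 and 23330 counts in PC3. The DHT-treated LNCaP libraries held 72, 1 and 0 counts and the vehicle-treated libraries 27, 0 and 5. PC3 thus stood at 820 ± 90.2 CPM, and in both LNCaP groups replicate 1 held most of the reads. CDH2 (N-cadherin; ENSG00000170558, chr18:27932879-28177946, minus strand) had 4598, 3806 and 4300 counts in PC3, against 15, 0 and 1 with DHT and 11, 0 and 0 with vehicle. Its mean was 172 ± 7.95 CPM in PC3, and replicate 1 was again the LNCaP library with most reads in both groups. The fitted log2 fold changes of PC3 over DHT-treated LNCaP were 9.46 (SE 0.76, adjusted p = 8.09e-06, edgeR) for CDH11 and 9.37 (SE 0.40, adjusted p = 2.64e-07) for CDH2, and over vehicle-treated LNCaP they were 10.52 and 9.78.

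**Figure D1:**
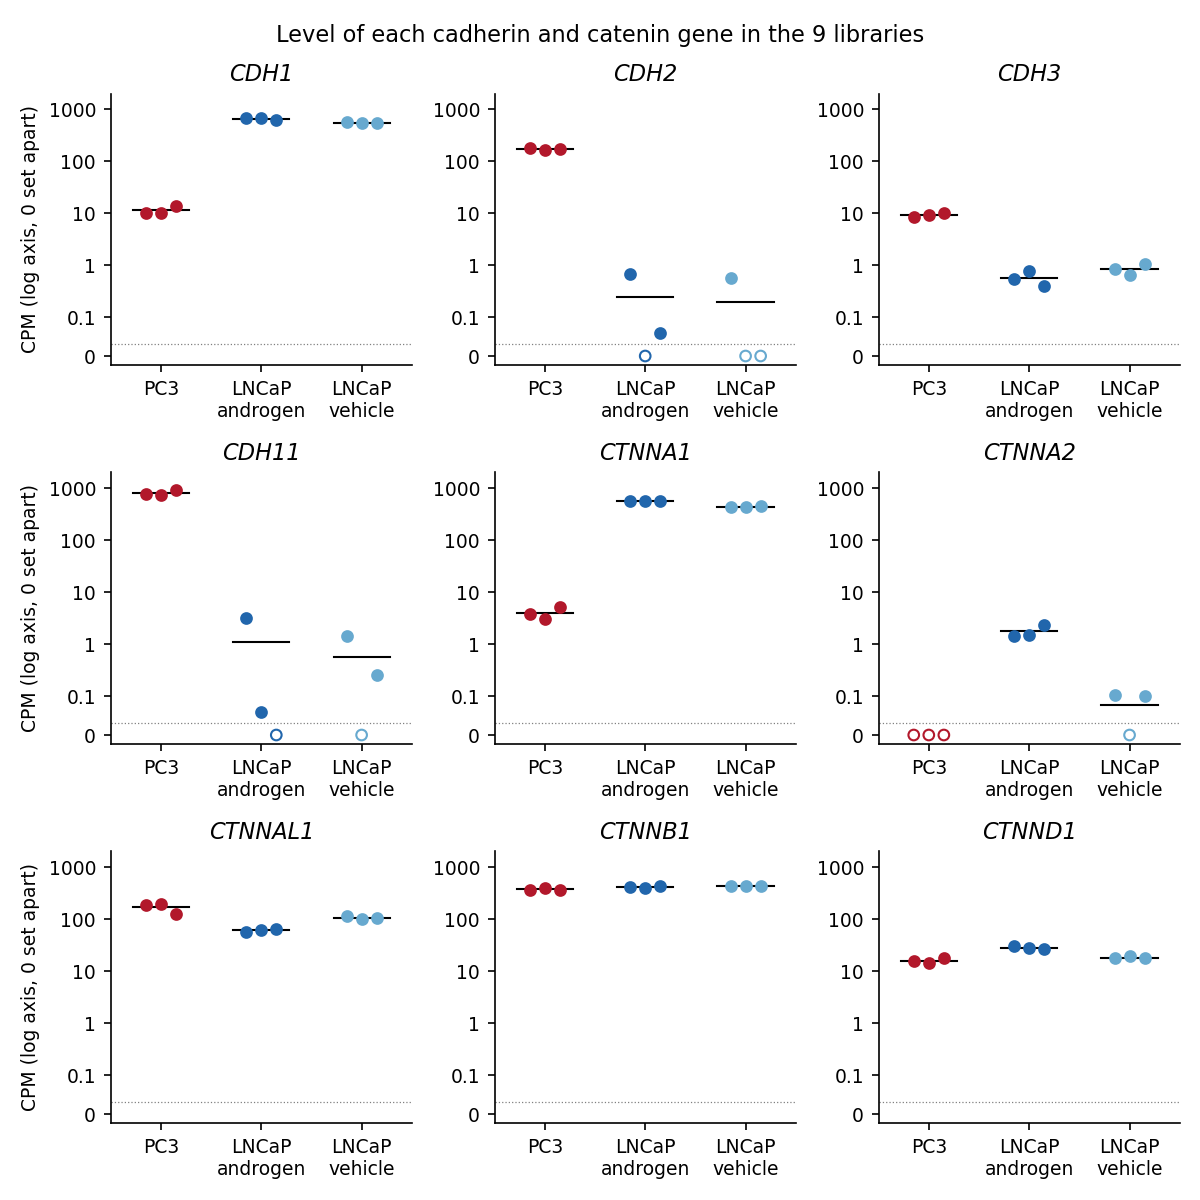
Level of each of the 9 genes in each library, in CPM on a log axis. Points are libraries (3 per group, where androgen is DHT here and in the other plots), black bars are group means, and open points under the dotted line are libraries with 0 counts. CDH1 and CTNNA1 are lower in PC3 than in LNCaP, CDH2, CDH3 and CDH11 are higher there, and CTNNB1 lies between 365 and 433 CPM in all 9 libraries.

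The few CDH2 and CDH11 reads in LNCaP were concentrated in the libraries that also held most of other PC3 transcripts. For 202 genes other than the 9 described, with at least 50 CPM in PC3 and under 1% of that level in LNCaP, the summed level was 0.667% of the PC3 level in DHT-treated replicate 1 and 0.424% in vehicle-treated replicate 1, against 0.215% to 0.257% in the other 4 LNCaP libraries. CDH2 stood at 0.390% and 0.335% of its PC3 level in these replicate 1 libraries, and CDH11 at 0.393% and 0.173%. In the other 4 libraries both genes lay between 0% and 0.0310%. Where these reads came from was not tested, so values without replicate 1 do not replace those over all 3 libraries. With all 3 kept, PC3 over DHT-treated LNCaP was 715-fold for CDH2 and 751-fold for CDH11 by mean CPM. Over vehicle-treated LNCaP these were 895-fold and 1473-fold. Without DHT-treated replicate 1 the fitted log2 fold changes over DHT-treated LNCaP rose to 12.40 for CDH2 and 14.65 for CDH11, and without vehicle-treated replicate 1 those over vehicle-treated LNCaP rose to 14.88 and 12.47. Against the 2 remaining vehicle-treated libraries, both at 0, CDH2 was at least 1045-fold higher in PC3, taking 3 counts per library as the limit. With both at 0, the fitted 14.88 is not a measured ratio. Against the 2 remaining DHT-treated libraries, which held 1 count of CDH11 in all, the ratio had a 95% counting interval (exact binomial) that began at 5914, and for CDH2, also with 1 count, at 1240.

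**Figure D2:**
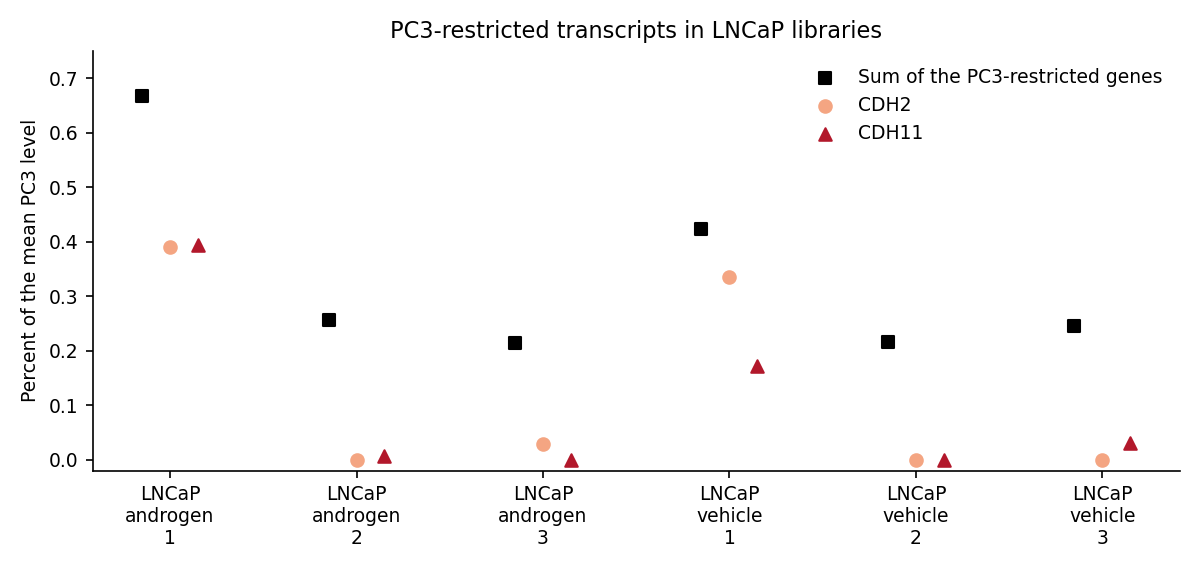
Level in each LNCaP library as a percent of the mean PC3 level, for the sum of 202 genes restricted to PC3 (squares), CDH2 (circles) and CDH11 (triangles). The replicate 1 library of each group is highest for the sum (0.667% and 0.424%) and for both cadherins.

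CDH3 (P-cadherin, found in basal epithelial cells; ENSG00000062038, chr16:68636189-68727468, plus strand) is the neighbour of CDH1, ending 9823 bases before it on the same strand. It had 212, 216 and 261 counts in PC3, 12, 16 and 8 with DHT and 16, 12 and 21 with vehicle. All PC3 libraries were above all LNCaP libraries, at 9.35 ± 0.985 CPM against 0.577 ± 0.196 and 0.855 ± 0.204 CPM. The log2 fold change of PC3 over LNCaP was 4.01 (SE 0.22, adjusted p = 9.21e-07, edgeR) with DHT and 3.46 with vehicle. The neighbours therefore differed between the lines in opposite directions. Unlike CDH2 and CDH11, CDH3 reads were spread over all 6 LNCaP libraries, at 4.31% to 11.4% of the PC3 level.

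Dividing by the length of the merged exons allows the 4 cadherins to be compared with each other. In PC3, CDH11 made up 72.4% ± 1.87 of their summed level per kb (SD, n = 3), CDH2 23.7% ± 2.12, CDH1 2.17% ± 0.215 and CDH3 1.72% ± 0.149. In LNCaP, CDH1 made up 99.8% ± 0.160 with DHT and 99.8% ± 0.106 with vehicle. The summed level was 85.1 ± 7.25 CPM per kb in PC3, 108 ± 6.20 with DHT and 90.6 ± 2.26 with vehicle. The order of these sums rests on the length used. Per kb of the canonical transcript they were 169, 137 and 115 CPM, with PC3 highest, while the leading cadherin of each line was the same. Per 100 counts of CDH1, the libraries of PC3 held between 1243 and 1768 counts of CDH2, and those of LNCaP between 0 and 0.102.

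**Figure D3:**
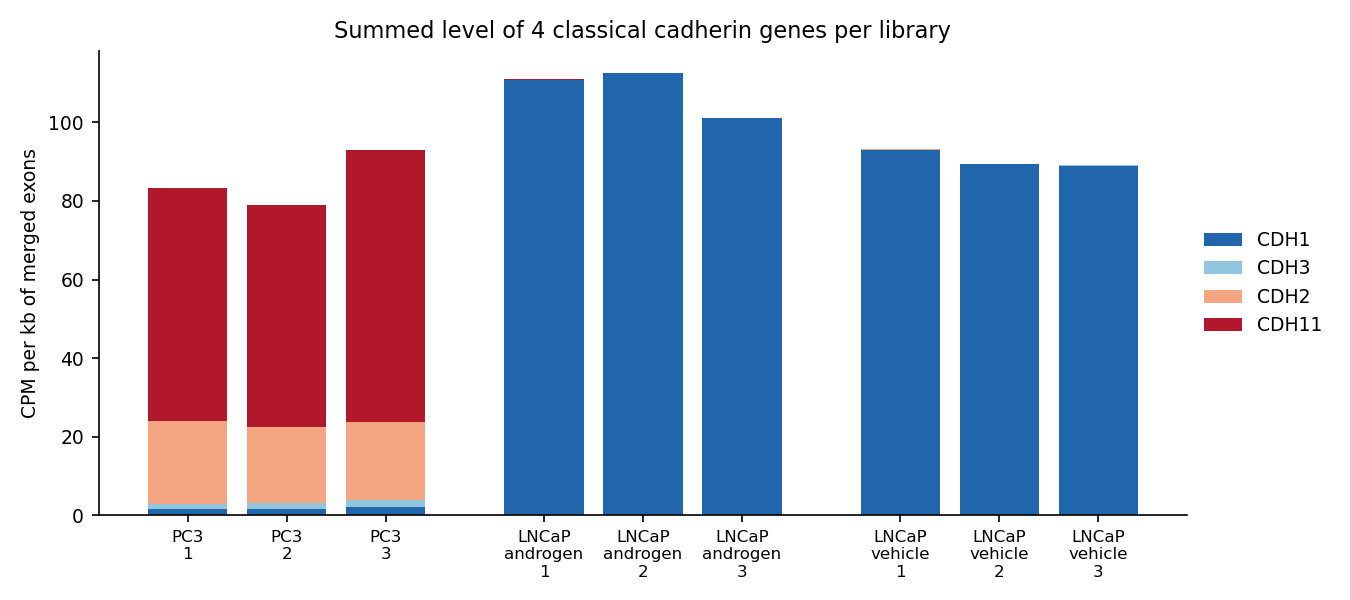
Summed level of CDH1, CDH2, CDH3 and CDH11 in each library, in CPM per kb of merged exons, stacked by gene. PC3 bars are mostly CDH11 with CDH2 (72.4% and 23.7% on average), and LNCaP bars are almost wholly CDH1.

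Among the catenins of the 9 genes that were tested, CTNNA1 had the largest difference between PC3 and both LNCaP groups, while beta-catenin was nearly level. CTNNA1 (alpha-E-catenin, the alpha-catenin of epithelia; ENSG00000044115, chr5:138610967-138935034, plus strand) had 98, 70 and 130 counts in PC3, 12773, 11641 and 11475 with DHT and 8428, 7904 and 8899 with vehicle. These are 4.01 ± 1.05 CPM in PC3, 575 ± 3.31 with DHT and 442 ± 9.11 with vehicle, with no overlap between any of the 3 groups. The log2 fold change of PC3 was -7.15 (SE 0.16, adjusted p = 2.02e-08, edgeR) against DHT and -6.76 against vehicle. PC3 retained 0.598% to 1.01% of the mean LNCaP level of CTNNA1. For comparison, 90 other genes with at least 50 CPM in LNCaP and under 1% of that in PC3 summed to between 0.189% and 0.197% of their LNCaP level in the PC3 libraries, and KLK3, the prostate-specific antigen gene, to between 0.0033% and 0.0328%. The part of reads from LNCaP material in the PC3 values was not tested.

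CTNNA2 (alpha-N-catenin, the neural form; ENSG00000066032, chr2:79185231-80648861, plus strand) had 0 counts in each PC3 library, 32, 31 and 46 with DHT and 2, 0 and 2 with vehicle. It was low everywhere, and it was the only one of the 9 genes below the minimum level for testing in all 3 comparisons. The 3 DHT-treated libraries were above all others. The level with DHT, 1.76 ± 0.486 CPM, was at least 13.5-fold above PC3, with 3 counts per library as the limit, and 24.9-fold above vehicle by the 109 counts against 4, with a 95% counting interval (exact binomial) from 9.44 to 92.9. When the minimum was dropped, CTNNA2 passed in DHT against vehicle (adjusted p = 1.48e-08, edgeR) and in PC3 against DHT-treated LNCaP (adjusted p = 9.93e-06), and not in PC3 against vehicle-treated LNCaP (adjusted p = 0.0820). CTNNA3 (alpha-T-catenin, the form of heart and testis), a gene outside the 9, ran the other way, at 20.1 ± 6.09 CPM in PC3, 0.0298 ± 0.0517 with DHT and 0.606 ± 0.326 with vehicle. Per kb of merged exons, the 3 alpha-catenin genes together reached 5.30% ± 1.71 of the CTNNB1 level in PC3, against 184% ± 5.39 with DHT and 138% ± 3.48 with vehicle, so CTNNA3 did not bring the PC3 sum near the LNCaP sums. Per kb of coding sequence the sums were 5.71%, 114% and 85.5% of the CTNNB1 level.

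CTNNAL1 (alpha-catulin, a relative of alpha-catenin and vinculin that is not a core part of the cadherin complex; ENSG00000119326, chr9:108942569-109013522, minus strand) was, of the 5 catenin genes among the 9, the one with a higher mean CPM in PC3 than in both LNCaP groups. It had 4667, 4513 and 3222 counts in PC3, 1295, 1241 and 1297 with DHT and 2172, 1824 and 2069 with vehicle. The groups did not overlap in CPM, at 169 ± 36.7, 61.5 ± 3.71 and 106 ± 6.97, and PC3 replicate 3 was the lowest of its group at 127 CPM. The log2 fold change of PC3 was 1.46 (SE 0.16, adjusted p = 5.52e-05, edgeR) over DHT, and 0.69 over vehicle (adjusted p = 0.00444), which is under 2-fold.

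CTNNB1 (beta-catenin; ENSG00000168036, chr3:41194741-41260096, plus strand) varied least. It had 9423, 8987 and 9232 counts in PC3, 9236, 8207 and 8590 with DHT and 8207, 7821 and 8389 with vehicle, or 375 ± 13.6, 417 ± 14.3 and 428 ± 2.18 CPM. PC3 libraries lay below all LNCaP libraries, by a small margin, and the 2 LNCaP groups overlapped. The log2 fold change of PC3 was -0.15 (SE 0.07, adjusted p = 0.0700, edgeR) against DHT and -0.17 (adjusted p = 0.0373) against vehicle. Over all alternatives the adjusted p ran from 0.0166 to 0.922 against DHT (highest without PC3 replicate 3, where the log2 fold change was -0.0063) and from 0.00489 to 0.388 against vehicle (highest without PC3 replicate 1), so a difference in CTNNB1 was not settled by these libraries. CTNND1 (p120-catenin; ENSG00000198561, chr11:57753243-57819546, plus strand) had 400, 324 and 452 counts in PC3, 673, 575 and 535 with DHT and 335, 355 and 353 with vehicle. The DHT-treated libraries were above the other 2 groups, which overlapped, and the log2 fold change of PC3 was -0.84 (SE 0.11, adjusted p = 0.000144) against DHT and -0.18 (adjusted p = 0.140) against vehicle. The CTNND1 counts may be an undercount. The table also lists a readthrough gene, TMX2-CTNND1, whose span covers 99.4% of CTNND1 and which has 0 counts in every library, and STAR leaves out a read that falls on 2 genes. The annotation behind the counts is not given in the sources used here, and in GENCODE 44, which has no gene of that readthrough name, CTNND1 shares 0% of its exons with same-strand genes of the table. Of the 74-nt stretches of CTNND1 transcripts, 35.9% are not unique to the gene (found at another genomic place or in another gene's transcripts), against 0% for CTNNB1 and CTNNAL1 and 1.37% to 7.57% for the other 6 genes. Whether and how much of CTNND1 was missed was not tested, and its place among the levels below carries this doubt.

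The near-constant CTNNB1 gave a common measure within each library. The CTNNA1 to CTNNB1 ratio per kb of merged exons was 0.0104 to 0.0188 in PC3, 1.78 to 1.89 with DHT and 1.35 to 1.41 with vehicle. Per kb of coding sequence it was 1.10 to 1.17 with DHT and 0.835 to 0.877 with vehicle. Whether CTNNA1 exceeded CTNNB1 with vehicle thus depended on the length used. On the log2 scale the difference was -7.04 between PC3 and DHT, -6.62 between PC3 and vehicle and 0.42 between DHT and vehicle. In each of these the groups did not overlap, with p = 0.1 in a two-sided exact permutation test, the smallest that 3 against 3 libraries can give. The CDH2 to CDH1 ratio also separated PC3 from each LNCaP group (exact permutation p = 0.1), and between the LNCaP groups it overlapped (exact permutation p = 1). These ratios do not rest on the scaling between libraries.

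**Figure D4:**
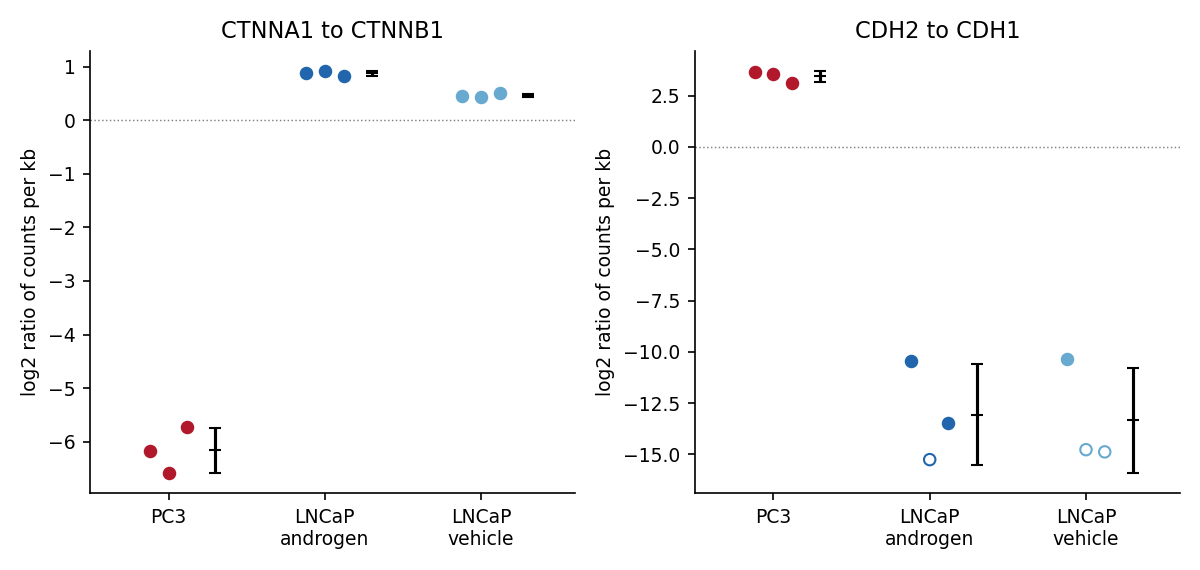
Log2 ratio of counts per kb of merged exons in each library, for CTNNA1 to CTNNB1 (left) and CDH2 to CDH1 (right), with 0.5 counts added to both genes. Points are libraries, open points have 0 counts of CDH2, and bars give the mean ± SD. CTNNA1 to CTNNB1 lies between -6.58 and -5.73 in PC3 and above 0 in LNCaP.

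Calls required an adjusted p under 0.05 together with a change of 2-fold or more. Against DHT-treated LNCaP, 6 of the 8 genes tested were called, 4 higher (CDH2, CDH3, CDH11 and CTNNAL1) and 2 lower (CDH1 and CTNNA1) in PC3, where 46.0% of all 12541 genes tested were called, 24.0% higher and 22.1% lower. Against vehicle-treated LNCaP, 5 of 8 were called, 3 higher (CDH2, CDH3 and CDH11) and the same 2 lower, where 43.2% of 12686 genes were, 22.2% higher and 21.0% lower. The libraries of the 2 groups did not overlap for 86.4% of genes in the former comparison and 85.8% in the latter. With so large a share of all genes called between the lines, the counts of calls alone say little about cadherins and catenins, and CDH2, CDH3 and CDH11 entered the test only through their PC3 level. The 2 PC3 comparisons share the PC3 libraries and are not independent of each other.

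**Figure D5:**
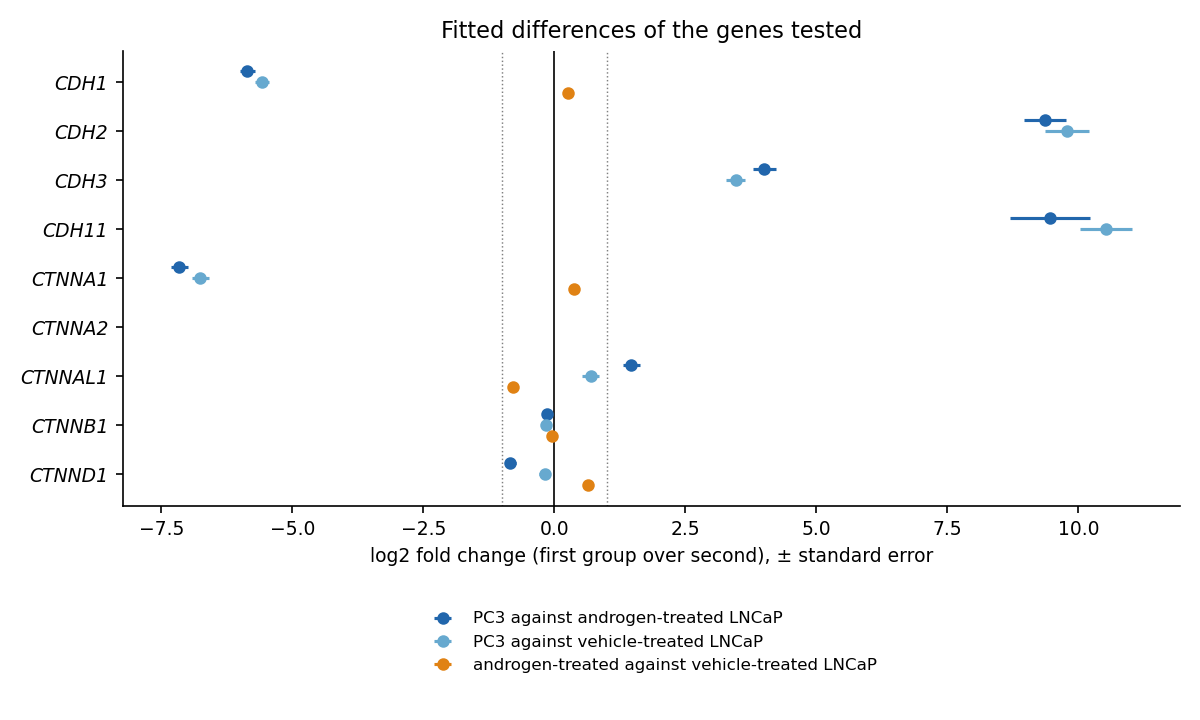
Fitted log2 fold change ± SE of each gene tested, first group over second, in the 3 comparisons. Dotted lines mark 2-fold, and CTNNA2 was not tested. Points of CDH1 and CTNNA1 lie near -6 and -7 for PC3 against LNCaP, those of CDH2 and CDH11 between 9 and 11, and all points of androgen-treated against vehicle-treated LNCaP (orange) lie inside the 2-fold lines.

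Apart from CTNNA2, DHT moved these genes in LNCaP by less than 2-fold where they could be tested. Of the 5 tested, 0 were called, against 14.0% of 11697 genes tested, and 4 passed an adjusted p under 0.05 at any fold in edgeR, as 74.9% of all genes did (37.1% higher and 37.8% lower with DHT). The same number, 4, had an unadjusted p under 0.05, and DESeq2 also called 0. CDH1 rose by a log2 fold change of 0.26 (SE 0.05, adjusted p = 0.000198, edgeR), CTNNA1 by 0.38 (SE 0.03, adjusted p = 4.14e-07) and CTNND1 by 0.64 (SE 0.07, adjusted p = 3.41e-06). CTNNAL1 fell by 0.79 (SE 0.06, adjusted p = 3.24e-08). For all 4 the DHT-treated and vehicle-treated libraries did not overlap, a property of 77.8% of genes in this comparison. CTNNB1 had a log2 fold change of -0.04 (adjusted p = 0.366). CDH2, CDH3 and CDH11, below the minimum level, had overlapping libraries, at means of 0.241 and 0.192 CPM, 0.577 and 0.855 CPM, and 1.09 and 0.556 CPM with DHT and vehicle. All 4 genes that passed moved further from the PC3 mean with DHT. CTNNAL1 went from 106 to 61.5 CPM (PC3 169) and CTNND1 from 18.3 to 28.5 CPM (PC3 15.9). CDH1 went from 549 to 657 CPM (PC3 11.3) and CTNNA1 from 442 to 575 CPM (PC3 4.01).

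Within a group, the order of levels per kb of merged exons could be read only in part. In PC3, CDH11 (61.7 ± 6.80 CPM per kb) and CTNNAL1 (54.1 ± 11.8) overlapped at the top, followed by CTNNB1 (31.9 ± 1.16) and CDH2 (20.1 ± 0.927), which did not overlap with their neighbours. CDH1, CDH3, CTNND1 and CTNNA1 were all under 2.3 in every library, and CTNNA2 was at 0. With DHT the order was CDH1 (108 ± 6.11), CTNNA1 (65.1 ± 0.375), CTNNB1 (35.5 ± 1.22), CTNNAL1 (19.7 ± 1.19) and CTNND1, without overlap, and CTNNA2, CDH3, CDH11 and CDH2 at the bottom could not all be separated, since CDH11 in replicate 1 lay within the range of CTNNA2. With vehicle, CTNNB1 (36.4 ± 0.186) and CTNNAL1 (34.0 ± 2.23) overlapped below CDH1 (90.4 ± 2.17) and CTNNA1 (50.1 ± 1.03). Per kb of the canonical transcript, CTNNA1 (153 ± 0.882) came before CDH1 (137 ± 7.71) with DHT. With vehicle, CTNNA1 then overlapped with CTNNB1 and CTNNB1 with CDH1, while CTNNAL1 (mean 43.3) lay below CTNNB1 (117) without overlap. In PC3, CTNNB1 (103) then lay above CTNNAL1 (68.9), and CDH11 overlapped with neither. Per kb of coding sequence, CTNNB1 (156) was again above CTNNAL1 (75.2) in PC3, where CTNNAL1 overlapped with CDH2. CDH11 had the highest mean in PC3 with each length. Below it in PC3, and at the top of LNCaP, the order depends on the transcript length assumed.

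Other genes of the junction and of the beta-catenin pathway were taken from fixed lists, of which up to 4 genes with the largest called change in each list are named. Of 19 other cadherins, 6 reached the minimum level in PC3 against DHT-treated LNCaP, and 5 were called higher in PC3 and 1 lower. In this comparison 24.0% of all genes tested were called higher and 22.1% lower. CDH6, CDH7, CDH8 and CDH12 entered the test only through their PC3 level and CDH26 only through LNCaP, so they had to differ and the count is not support for the list. CDH12 stood at 8.50 ± 2.76 CPM in PC3, 0 with DHT and 0.0175 ± 0.0303 with vehicle. CDH6 (kidney cadherin) stood at 5.30 ± 1.25, 0.177 ± 0.0607 and 0.839 ± 0.202 CPM, and CDH8 at 3.41 ± 0.266, 0.125 ± 0.114 and 0.159 ± 0.0576. CDH26 was the one that was lower in PC3, at 0.252 ± 0.155 CPM against 7.50 ± 1.28 with DHT and 29.7 ± 2.89 with vehicle, and it fell with DHT by 1.98 on the log2 scale (SE 0.11, adjusted p = 3.70e-09, edgeR). The 3 named cadherins that were higher in PC3 stood below 10 CPM there, far under CDH11 and CDH2.

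Of 21 adherens junction partners, all tested, 6 were called higher and 5 lower in PC3 than in DHT-treated LNCaP. Of all genes tested, 24.0% were called higher and 22.1% lower. The median log2 fold change was -0.07 (0.04 over all genes tested). CTNNA3, CTNND2 and NECTIN3 entered the test only through their PC3 level and NECTIN4 only through LNCaP, so these counts are not support for the list. Beside CTNNA3, the partners included CTNND2 (delta-catenin, the neural p120 relative), at 4.07 ± 0.944 CPM in PC3 and under 0.02 CPM on average in both LNCaP groups. The nectins are immunoglobulin-like adhesion molecules of the same junction. NECTIN3 stood at 48.3 ± 1.79 CPM in PC3, 2.07 ± 0.197 with DHT and 0.596 ± 0.0683 with vehicle, and NECTIN4 at 0.212 ± 0.230, 13.5 ± 0.657 and 11.6 ± 0.163 CPM. JUP (plakoglobin or gamma-catenin, the closest relative of beta-catenin), named here after its values were seen, was lower in PC3, with 1295 to 1617 counts against 5762 to 6592 with DHT and 5600 to 6191 with vehicle (log2 fold change -2.31, SE 0.10, adjusted p = 2.47e-07, edgeR, for PC3 against DHT).

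Of 8 repressors of CDH1, 6 were tested in PC3 against DHT-treated LNCaP, and 4 were called higher in PC3 (24.0% of all genes tested). Against vehicle-treated LNCaP 5 of 6 were called higher (22.2% of all genes). ZEB1 and TWIST2 entered both tests only through their PC3 level, as did TCF4 against DHT and SNAI2 against vehicle. These counts are therefore not support for the list. ZEB1, a zinc-finger repressor, stood at 63.2 ± 4.83 CPM in PC3, 0.171 ± 0.123 with DHT and 0.120 ± 0.116 with vehicle (log2 fold changes 8.45 and 8.97). TWIST2 stood at 5.95 ± 0.391 CPM in PC3, 0.0336 ± 0.0582 with DHT and 0 with vehicle, and TCF4, an E-protein, at 20.7 ± 3.12, 0.794 ± 0.278 and 3.78 ± 0.339. SNAI2 (Slug) followed another pattern, with 10.6 ± 1.42 CPM in PC3 and 8.72 ± 1.66 with DHT against 0.209 ± 0.103 with vehicle. It rose with DHT by a log2 fold change of 5.33 (SE 0.29, adjusted p = 2.26e-09, edgeR), in the same libraries in which CDH1 rose by 0.26. SNAI2 entered that test only through its level with DHT, with 2 to 6 counts per vehicle-treated library. TWIST1 and SNAI1 are named after their values were seen. TWIST1 had a log2 fold change of -0.56 in PC3 against DHT (adjusted p = 0.0388, edgeR) and 2.03 against vehicle, at means of 31.8 CPM in PC3, 46.9 with DHT and 7.94 with vehicle. SNAI1 (Snail), below the minimum level, had means of 0.516, 1.12 and 2.30 CPM.

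Of 9 epithelial regulators, 8 were tested, and 7 were called lower in PC3 and 1 higher in both PC3 comparisons. Of all genes tested, 22.1% were called lower and 24.0% higher against DHT, and 21.0% and 22.2% against vehicle. OVOL1 and OVOL2 entered the test only through their LNCaP level, so they had to be lower and the count is not support for the list. GRHL2, which maintains epithelial junction genes, stood at 3.48 ± 0.545 CPM in PC3, 173 ± 10.4 with DHT and 120 ± 5.66 with vehicle. OVOL1 and OVOL2, repressors of ZEB1, stood at 0.411 ± 0.125 and 0.585 ± 0.167 CPM in PC3 and at 4.82 ± 0.403 and 12.8 ± 0.837 with DHT. KLF4 was the exception, at 72.2 ± 6.30 CPM in PC3, 31.9 ± 6.79 with DHT and 5.94 ± 1.55 with vehicle.

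Of 15 genes of beta-catenin degradation, 14 were tested, and 3 were called in PC3 against DHT-treated LNCaP, all lower in PC3, where 46.0% of all genes were called. These were TNKS (tankyrase, which marks AXIN for degradation; 24.1 ± 0.310 against 49.7 ± 2.55 CPM), AXIN2 (4.31 ± 0.690 against 10.5 ± 0.999) and APC, the scaffold of the destruction complex (37.4 ± 4.07 against 79.2 ± 8.27). Against vehicle-treated LNCaP, where 43.2% of all genes were called, 2 were, TNKS and AXIN2. APC was not, at a log2 fold change of -0.42 (a mean of 51.0 CPM with vehicle), and its log2 fold change with DHT over vehicle was 0.63. With DHT against vehicle, 7 of 14 passed an adjusted p under 0.05 in edgeR, each by less than 2-fold, as 74.9% of all genes did at any fold. Among 16 nuclear partners and feedback targets of beta-catenin, 4 were higher and 3 lower in PC3 than in DHT-treated LNCaP, of 11 tested. Of all genes tested, 24.0% were called higher and 22.1% lower. TCF7L1 and TCF7 entered the test only through their PC3 level, and NKD1 and RNF43 only through LNCaP. These counts are therefore not support for the list. The TCF/LEF factors are those through which beta-catenin reaches DNA. TCF7L1 stood at 15.5 ± 2.97 CPM in PC3 against 0.0930 ± 0.0746 with DHT and 0.105 ± 0.0513 with vehicle, and TCF7 at 9.59 ± 2.02 against 0.994 ± 0.0609 and 1.21 ± 0.190. LEF1 stood at 0.193 ± 0.0980 CPM in PC3, 1.34 ± 0.461 with DHT and 3.23 ± 0.132 with vehicle, and was not tested in PC3 against DHT. TCF7L2, named after its values were seen, had the most reads of these 4 genes in every group, at means of 30.6 CPM in PC3, 8.53 with DHT and 9.36 with vehicle, and was called higher in PC3 in both comparisons (log2 fold changes 1.85 and 1.74). NKD1, a feedback inhibitor of Wnt signalling, stood at 0.108 ± 0.0431, 5.22 ± 1.25 and 9.54 ± 0.191 CPM. With DHT against vehicle, 3 of 11 in this list were called, all lower, LEF1 among them (log2 fold change -1.27, SE 0.21, adjusted p = 0.000121, edgeR). Of all genes tested in this comparison, 14.0% were called in either direction. LEF1 and NKD2 entered the test only through their vehicle level, so this count is not support for the list.

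Of 9 proteases and ubiquitin ligases that act on classical cadherins, 2 were higher and 5 lower in PC3 than in DHT-treated LNCaP, and 2 were higher and 2 lower than in vehicle-treated LNCaP, where 46.0% and 43.2% of all genes tested were called. ADAM10, which sheds the outer part of E-cadherin and N-cadherin, stood at 89.0 ± 6.84 CPM in PC3, 291 ± 6.95 with DHT and 197 ± 4.18 with vehicle. MDM2, also a ligase of E-cadherin, stood at 47.1 ± 4.15, 164 ± 12.6 and 176 ± 11.2 CPM. CBLL1 (Hakai, a ligase of E-cadherin) stood at 59.7 ± 4.07 CPM in PC3, 180 ± 7.09 with DHT and 57.6 ± 0.744 with vehicle. It was the only one of these 9 called with DHT against vehicle (log2 fold change 1.65, SE 0.04, adjusted p = 1.97e-12, edgeR). In that comparison 14.0% of all genes tested were called.

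The genes closest in pattern were ranked by the root mean square difference of mean-centred log2(CPM + 0.5) over the 9 libraries, among 12842 genes. For CDH11 the nearest were APOBEC3C, S100A6 and IGFBP4, at 0.203 to 0.226, and for CDH2 they were HMGA2, ETV4 and NTN4, at 0.197 to 0.216. For CDH1 they were STEAP2 (0.0836), MYO6 and NRN1, and for CTNNB1, SSB (0.0315), PHRF1 and CCNT2. Nearness of this kind is a description over 9 libraries in which 2 cell lines account for most of the variation.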

How the data were processed

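RNA of the 9 libraries was sequenced as 74-nt single-end reads. The authors trimmed adapters (cutadapt 4.1), aligned to GRCh38 (STAR 2.7.7a) and removed PCR duplicates (UMI-tools 1.1.2), versions per the labels, and deposited counts of reads per gene without normalization. All 253944 values equalled STAR's forward-strand column, and 20.3% to 25.4% of reads were not counted on a gene. Genes above 3 CPM in at least 3 libraries of a fit were tested with edgeR 4.0.16 (R 4.3.3; TMM, quasi-likelihood F test, Benjamini-Hochberg adjustment), each comparison on its own 6 libraries. The authors used a likelihood ratio test with a batch term, left out here because the batches were not named. DESeq2 1.42.0, other filters, unstranded counts, a replicate block and left-out libraries were alternatives. The fits were tested on simulated data. Gene positions and lengths are GENCODE 44.

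Members and gene lists were chosen with earlier results of these data known. Named from each list are the 4 called genes with the largest change and over 3 CPM in every library of a group, except 1 gene that is not reported here, and JUP, TCF7L2, TWIST1, SNAI1 and the single cell type markers were added once their values were known. Replicate numbers paired the LNCaP libraries by the counts alone (correlations of deviations 0.18, 0.21 and 0.18 for equal numbers over 11975 genes).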

Additional observations from a re-analysis of the deposited data

How the results depend on the processing

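The direction and call of every gene tested were the same under all alternatives that gave a value (111, 109 and 75 values of log2 fold change in PC3 against DHT, PC3 against vehicle, and DHT against vehicle), and so were the 42 ratio values. Counts of calls moved with the filter. Without a filter on low counts, 9147, 8713 and 2941 genes were called in the 3 comparisons, against 5773, 5485 and 1641, and 1 cadherin or catenin gene, CTNNA2, was called in DHT against vehicle. With at least 10 counts required in every library, 3 of the 9 genes were called in PC3 against DHT and 3 in PC3 against vehicle, because CDH2 and CDH11, and against DHT also CDH3, were no longer tested. Leaving out 1 library gave 4633 to 5006, 4361 to 4593 and 1404 to 1551 genes called, and 4 to 6, 2 to 5 and 0 of the cadherin and catenin genes. The lowest values for these genes came from leaving out any of the PC3 libraries, after which CDH2 and CDH3, and against vehicle also CDH11, could not reach the minimum in 3 libraries. With the replicate block, which pairs libraries of equal number, 5756, 5495 and 1638 genes were called and 6, 5 and 0 of the cadherin and catenin genes, and it changed no call among them. Levels per kb moved with the length used, in 48 of 54 values. Scaling with DESeq2 size factors shifted the median log2 fold change by less than 0.1, and a shift shared by most genes would be seen with neither scaling. Depth limits CDH2, CDH11 and CTNNA2, whose low groups hold between 0 and 72 counts per library.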
